A study of Homo sapiens with 12 samples.

Results

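The transcripts described here are those of 9 genes of the Hedgehog pathway, EVC, EVC2, SMO, PTCH1, GLI1, GLI2, GLI3, SUFU and HHIP, out of 60660 genes in each table. They were found by their gene symbols, and all 9 genes were listed for each of the 12 libraries, some of them with a count of 0. The group was put together because EVC was higher with the piR-4447944 mimic in both cell lines, so the difference of EVC between mimic and NC-mimic is given as a description and is not tested. The prostate cancer (PCa) cells were LNCaP, an androgen-sensitive line from a lymph node metastasis, and 22Rv1, a line from a xenograft that relapsed after castration. Each line was transfected with NC-mimic, the negative control oligo, or with piR-4447944 mimic, a synthetic copy of the piRNA piR-4447944, and the cells of all 12 libraries were deprived of androgen by medium with charcoal-stripped serum. The 4 groups, LNCaP NC-mimic, LNCaP piR-4447944 mimic, 22Rv1 NC-mimic and 22Rv1 piR-4447944 mimic, had 3 libraries each. The legend of the study's figure with these data, which also covers other assays, speaks of independent experiments for the data as a whole. It does not say whether the libraries of a group came from separate cultures. The p-values given here therefore measure the spread between these libraries, which may be technical. Each line stands for itself only. No culture date or batch is given for the libraries, so a difference between the lines cannot be told apart from one of handling.

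Hedgehog ligands act on cells that carry the receptor PTCH1, a membrane protein that keeps the transducer SMO inactive until ligand binds. Active SMO gathers in the primary cilium, where EVC and EVC2 form a complex at the base of the organelle that relays the signal onward, and loss of either gene causes Ellis-van Creveld syndrome. SUFU holds the GLI transcription factors back, GLI2 and GLI3 are the factors that the signal acts on, and GLI1 is itself a target that strengthens the output. PTCH1 and HHIP, a decoy for ligand, are targets too and dampen the pathway. In the prostate the pathway is best known for signals from epithelium to stroma, and its use within PCa cells has been debated.

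The libraries held between 12161091 and 22179601 expected counts. Luminal PCa markers were abundant, with KLK3 at a mean of 2040 TPM in LNCaP with NC-mimic and KRT8 at 518 TPM in 22Rv1 with the mimic, whereas the 3 basal markers KRT5, KRT14 and TP63 stayed below 1 TPM in all 4 groups, and the summed level of 3 endothelial and of 3 immune markers was at most 1.89 and 6.02 TPM. Every pair of libraries within a group differed by more than sampling noise. The 22Rv1 libraries numbered 3, 1 with NC-mimic and 1 with the mimic, stood apart from the other 4 libraries of that line: the chi-square per gene against the libraries numbered 1 and 2 of the same group was between 37.7 and 106, against at most 15.0 for any other pair within a group. Both lay above or both lay below the other 4 libraries for 39.1% of the 16898 genes tested, so 22Rv1 results are also given without them. Levels are given as CPM, counts relative to library size after TMM scaling over all 12 libraries, for comparing libraries, and as TPM, which is per length, for comparing genes. In such bulk libraries, fewer cells with a transcript and less of it per cell cannot be told apart.

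EVC and EVC2 lie head to head on chromosome 4, and their upstream sequences are shown because the data below differ so much between these neighbours. In GENCODE on hg38, EVC spans 5711201 to 5814305 (plus strand) and EVC2 spans 5542772 to 5709548 (minus strand), which leaves 1652 bases between their starts. Below are the 250 bases before the RefSeq start of each gene (GRCh38.p14), read 5′ to 3′ on the strand of the gene, with CG dinucleotides in capitals. The EVC stretch is chr4:5710951-5711200 (plus strand) and the EVC2 stretch is chr4:5708560-5708809 (minus strand), inside the GENCODE span of EVC2.
EVC: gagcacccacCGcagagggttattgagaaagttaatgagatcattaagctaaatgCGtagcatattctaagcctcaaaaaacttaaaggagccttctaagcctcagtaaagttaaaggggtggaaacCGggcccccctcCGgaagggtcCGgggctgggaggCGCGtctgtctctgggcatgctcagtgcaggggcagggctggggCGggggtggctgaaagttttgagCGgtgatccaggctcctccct
EVC2: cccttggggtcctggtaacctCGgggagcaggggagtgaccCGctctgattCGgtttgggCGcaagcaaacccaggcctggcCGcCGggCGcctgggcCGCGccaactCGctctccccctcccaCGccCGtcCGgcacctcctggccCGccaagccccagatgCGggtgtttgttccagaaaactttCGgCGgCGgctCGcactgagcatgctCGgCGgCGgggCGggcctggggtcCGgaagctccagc
The EVC stretch held 9 CG dinucleotides and the EVC2 stretch 24. Over 300 bases, from 250 before to 50 after the start, the counts were 13 for EVC and 32 for EVC2, beside a median of 14 over 35116 RefSeq promoters, and they lay at percentiles 48.3 and 81.1 of that set. The 1652 bases between the genes held 26 CG dinucleotides at a GC content of 49.0%.

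EVC was transcribed in all 12 libraries. In LNCaP the NC-mimic libraries gave 833, 719 and 666 expected counts and the mimic libraries 657, 787 and 825. After scaling, the NC-mimic libraries were at 43.2, 36.9 and 40.5 CPM and the mimic libraries at 44.4, 48.4 and 47.9 CPM. The 3 mimic libraries lay above the 3 NC-mimic libraries, but the lowest of the former and the highest of the latter were close together. The means were 40.2 ± 3.17 and 46.9 ± 2.18 CPM (SD, n = 3), a log2 fold change of 0.22 (SE 0.0869).

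In 22Rv1 the distance was wider. The NC-mimic libraries gave 646, 407 and 325 expected counts of EVC and the mimic libraries 544, 620 and 669. In CPM the NC-mimic libraries were at 29.4, 26.3 and 26.5 and the mimic libraries at 37.4, 34.6 and 43.3, with no overlap. The log2 fold change was 0.48 (SE 0.151), and 0.37 (SE 0.135) without both libraries numbered 3. Of all genes tested, 4.11% had the mimic libraries all above the NC-mimic libraries in LNCaP and 4.06% in 22Rv1; EVC was chosen on these contrasts, and nothing is read from its place among them.

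In TPM the groups overlapped for EVC in both lines. LNCaP had 11.4, 10.2 and 9.88 TPM with NC-mimic and 10.8, 12.6 and 12.01 TPM with the mimic. 22Rv1 had 10.2, 5.48 and 5.62 TPM with NC-mimic and 11.6, 7.36 and 13.0 TPM with the mimic, so that library 1 with NC-mimic was above library 2 with the mimic. TPM divides by the mean length of the transcripts to which RSEM assigned the reads, and for EVC that length varied within 22Rv1 between 3963 and 6427 bases, against 5093 to 5667 bases in LNCaP.

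**Figure D1:**
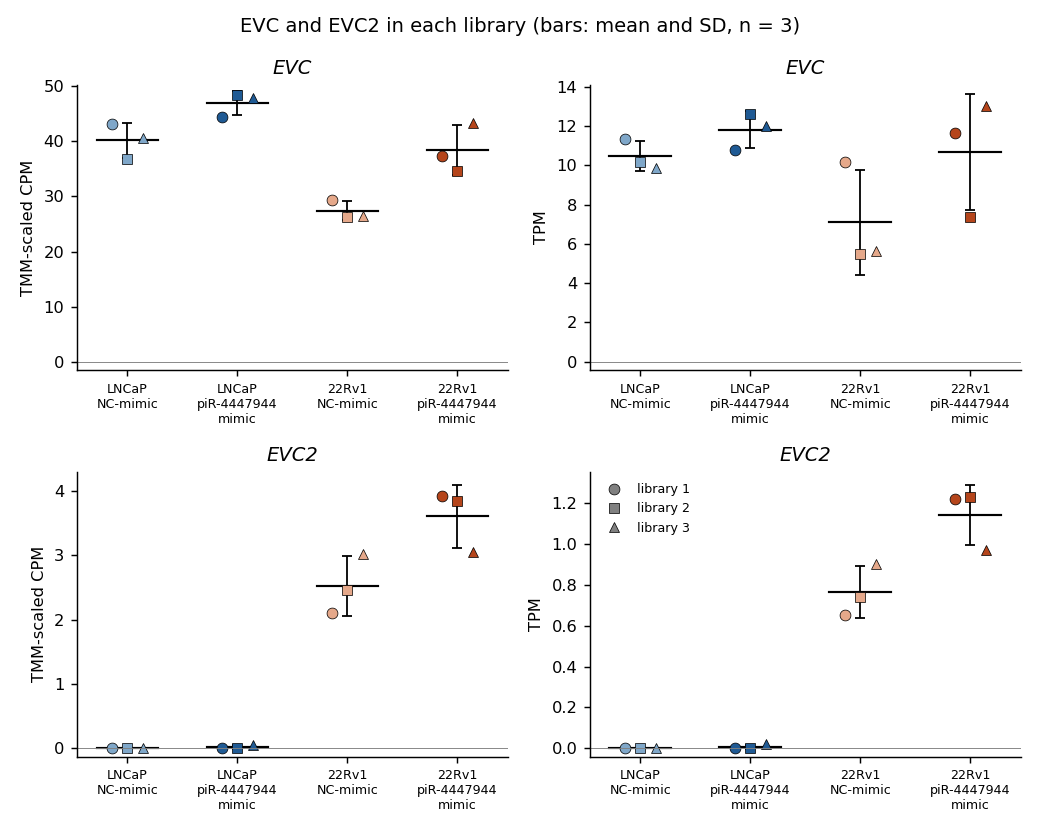
Level of EVC (top) and EVC2 (bottom) in each library, in TMM-scaled CPM on the left and in TPM on the right. Points are libraries, horizontal lines the means and bars the SD of the 3 libraries of a group. EVC in CPM is higher in the mimic libraries than in the NC-mimic libraries of the same line, in TPM the groups overlap, and EVC2 is at or near 0 in LNCaP.

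EVC2, the partner of EVC in the complex, was all but absent from LNCaP. Its expected count was 0 in 5 of the 6 LNCaP libraries and 1 in mimic library 3. In 22Rv1 it was 46, 38 and 37 with NC-mimic and 57, 69 and 47 with the mimic. The lines did not overlap at all. With NC-mimic, 0 counts in LNCaP against 121 in 22Rv1 put EVC2 at least 44.8-fold higher in 22Rv1, taking 3 counts over the group as the limit for LNCaP. With the mimic, 1 count against 173 gave a ratio of 174 (exact 95% interval 30.9 to 6920). This interval, like every interval on counts here, covers counting error only, and EVC2 passed the filter on low counts through 22Rv1 alone, so no p is given for it between the lines.

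Within 22Rv1, EVC2 stood at 2.10, 2.46 and 3.02 CPM with NC-mimic and at 3.92, 3.85 and 3.04 CPM with the mimic. The groups touched but did not overlap, since mimic library 3 was just above NC-mimic library 3. The log2 fold change was 0.51 (SE 0.363, edgeR adjusted p = 0.999), with an exact two-sided permutation p of 0.1, the smallest that 3 libraries against 3 can give. Without both libraries numbered 3 it was 0.78 (SE 0.419, adjusted p = 0.976). Per length, EVC2 reached between 6.39% and 16.7% of the TPM of EVC in the same 22Rv1 library, and at most 0.167% in LNCaP.

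For EVC itself the difference between the lines was smaller. It was lower in 22Rv1 than in LNCaP with NC-mimic by a log2 fold change of -0.56 (SE 0.118), and by -0.54 without 22Rv1 library 3. Both are short of the limit of 1 used here for calling a line difference. In the mimic libraries the log2 fold change was -0.28 (SE 0.123), and it was -0.38 (SE 0.0936) without 22Rv1 library 3. EVC was chosen on values of these same libraries, so no p is given for it between the lines. In TPM the lines overlapped for EVC with either oligo.

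Another gene overlaps EVC. CRMP1, which encodes a cytosolic protein of neuronal guidance signalling, lies on the minus strand from 5748084 to 5893086 on chromosome 4 and shares 159 of the 7144 exon bases of EVC. No source used here says whether strand was used in counting, so reads from the shared bases cannot be told apart. CRMP1 was between 5.46 and 11.5 CPM over the 12 libraries, and its own log2 fold change with the mimic was 0.08 (SE 0.206) in LNCaP and 0.23 (SE 0.338) in 22Rv1, both at an edgeR adjusted p of 0.999. With both genes summed, the change of EVC was 0.20 in LNCaP and 0.43 in 22Rv1. No annotated gene overlaps EVC2. Of the nearest protein-coding genes on either side, STK32B, 41777 bases beyond the end of EVC2, had a count of 0 in all 12 libraries, and C4orf50, 83067 bases beyond the end of EVC, had between 8.40 and 24.2 expected counts in LNCaP and was 0 in 5 of the 6 22Rv1 libraries.

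The receptor and the transducer were far apart between the lines, in opposite directions. SMO (chr7:129188633-129213545, plus strand), the membrane protein that carries the signal past the receptor, was at 40.7, 42.3 and 52.3 CPM in LNCaP with NC-mimic and at 46.1, 49.96 and 51.0 CPM with the mimic. In 22Rv1 it was at 1.00, 1.03 and 1.22 CPM with NC-mimic, from 22, 16 and 15 expected counts, and at 0.894, 0.948 and 0.713 CPM with the mimic, from 13, 17 and 11 counts. Every 22Rv1 library was thus far below every LNCaP library. SMO was 42.0-fold lower in 22Rv1 with NC-mimic (log2 fold change -5.39, SE 0.193, edgeR adjusted p = 6.14e-07) and 56.6-fold lower with the mimic (-5.82, SE 0.176, adjusted p = 6.8e-06). Leaving out 22Rv1 library 3 gave log2 fold changes of -5.47 and -5.71 (adjusted p = 1.17e-09 and 8.68e-11).

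PTCH1 (chr9:95442980-95517057, minus strand), the receptor that restrains SMO, showed the reverse. LNCaP had 51.1, 47.2 and 39.3 CPM with NC-mimic and 47.1, 47.5 and 44.7 CPM with the mimic. 22Rv1 had 173, 139 and 156 CPM with NC-mimic and 184, 173 and 169 CPM with the mimic. PTCH1 was therefore higher in each 22Rv1 library than in any LNCaP library, by 3.38-fold with NC-mimic (log2 fold change 1.76, SE 0.132, edgeR adjusted p = 1.82e-05) and by 3.79-fold with the mimic (1.92, SE 0.0857, adjusted p = 1.45e-05). These log2 fold changes were 1.75 and 1.95 without 22Rv1 library 3 (adjusted p = 1.83e-07 and 2.46e-10). Per length, the TPM of PTCH1 was between 0.393 and 0.959 times that of SMO in LNCaP libraries and between 84.3 and 171 times in 22Rv1 libraries.

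PTCH1 is a textbook GLI target, so its upstream sequence is shown with the letters of a GLI binding site in capitals. The letters searched were TGGGTGGTC, on both strands, and its core GGGTGGTC, which lies inside it. Of the 5 RefSeq promoters of PTCH1, the one at chr9:95509217-95509516 (GRCh38.p14, minus strand) held the match, at position -172 from the start. The 250 bases before that start, chr9:95509267-95509516, read 5′ to 3′ on the minus strand:
PTCH1: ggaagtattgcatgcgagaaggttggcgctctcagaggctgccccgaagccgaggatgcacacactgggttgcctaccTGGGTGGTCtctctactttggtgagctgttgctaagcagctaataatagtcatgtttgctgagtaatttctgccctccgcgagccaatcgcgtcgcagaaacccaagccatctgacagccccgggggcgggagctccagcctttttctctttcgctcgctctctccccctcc
The longer form occurred in 83 of 35116 RefSeq promoters of this length (0.236%) and the core in 342 (0.974%). Neither form was found in the promoters of EVC, EVC2, SMO, GLI2, SUFU or HHIP, which says only that these letters are not in those windows.

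HHIP (chr4:144646156-144745271, plus strand), the decoy for ligand, was too low for a test in any comparison. Its expected count was 0 in 5 LNCaP libraries and 1 in mimic library 3, against 1, 5 and 2 in 22Rv1 with NC-mimic and 3.66, 5 and 2 with the mimic. With NC-mimic, 0 against 8 counts was at least 2.96-fold higher in 22Rv1, and with the mimic, 1 against 11 counts gave a ratio of 11.1 (exact 95% interval 1.61 to 477). HHIP-AS1, an antisense RNA named here after its values were seen, had 0 counts in LNCaP and 18 and 14.3 in the 22Rv1 groups, and its reads and those of HHIP may not be separable where they overlap.

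SUFU (chr10:102503972-102633535, plus strand), the inhibitor of the GLI factors, was lower in 22Rv1. LNCaP had 54.3, 60.0 and 59.7 CPM with NC-mimic and 56.0, 51.9 and 49.1 CPM with the mimic, whereas 22Rv1 had 25.3, 24.2 and 23.0 CPM with NC-mimic and 20.8, 25.0 and 31.5 CPM with the mimic. No 22Rv1 library reached an LNCaP library. The log2 fold change between the lines was -1.27 with NC-mimic (SE 0.108, edgeR adjusted p = 3.49e-05) and -1.01 with the mimic (SE 0.171, adjusted p = 0.00268). The second value lies at the limit of 1: it was -0.88 without 22Rv1 mimic library 1 (adjusted p = 0.00611), -0.99 without 22Rv1 mimic library 2 (adjusted p = 0.0126), -0.98 without LNCaP mimic library 1 (adjusted p = 0.0153) and -1.18 without 22Rv1 mimic library 3. With NC-mimic it was -1.24 without 22Rv1 library 3 (adjusted p = 1.5e-06).

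**Figure D2:**
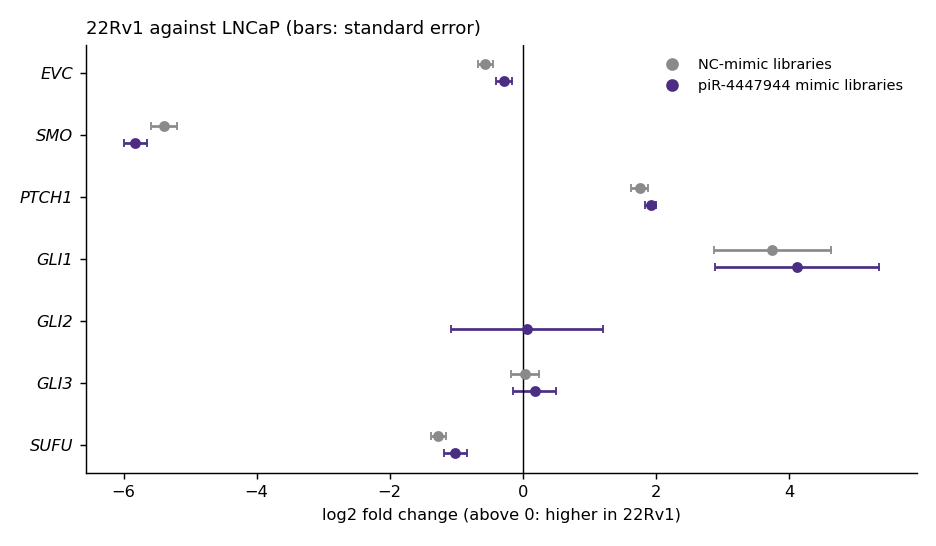
Log2 fold change of each member in 22Rv1 against LNCaP, in the NC-mimic libraries (grey) and the piR-4447944 mimic libraries (purple), with standard errors. SMO and SUFU lie below 0 and PTCH1 and GLI1 above 0 in both sets. EVC also lies below 0 and GLI3 above 0 in both sets, inside the limit of 1, and GLI3 by less than its standard error. EVC2 and HHIP are left out because LNCaP was at or near 0, and GLI2 passed the filter only in the mimic libraries.

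GLI1 (chr12:57459785-57472268, plus strand), the GLI factor that is itself a target, varied widely inside 22Rv1. In LNCaP its expected counts were 13, 6 and 11 with NC-mimic and 2, 3 and 14 with the mimic. In 22Rv1 they were 64, 35 and 215 with NC-mimic and 22, 32 and 263 with the mimic. The 22Rv1 libraries numbered 3 were thus high with either oligo, at 17.5 and 17.0 CPM, while the other 4 lay between 1.51 and 2.92 CPM. The mean of these 2 libraries was 8.16 times the mean of the other 4, and 24 of 16898 genes, GLI1 included, were separated upward by as much as the 2.50 log2 units between the lower of the 2 and the highest of the 4.

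GLI1 was higher in 22Rv1 than in LNCaP also without those libraries. The log2 fold change was 3.75 with NC-mimic (SE 0.878) and 4.12 with the mimic (SE 1.23). Without 22Rv1 library 3 it was 2.22 (SE 0.493) and 2.08 (SE 0.707). With all libraries in the fit, GLI1 passed the filter on low counts through 22Rv1, as EVC2 did. Its line differences are therefore given without p. In the mimic libraries GLI1 was no longer called when LNCaP library 1 or LNCaP library 2 was left out, with log2 fold changes of 3.73 and 3.78.

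GLI2 (chr2:120735623-120992653, plus strand), the main activator among the GLI factors, was near the limit of detection. LNCaP had 9, 14 and 9 expected counts with NC-mimic and 6, 11 and 21 with the mimic. 22Rv1 had 0, 2 and 18 counts with NC-mimic and 0, 7 and 31 with the mimic. As for GLI1, the libraries numbered 3 were the highest of each 22Rv1 group, and library 1 was at 0 with either oligo. The pooled counts, 32 in LNCaP against 20 in 22Rv1 with NC-mimic and 38 against 38 with the mimic, gave ratios of 0.694 (exact 95% interval 0.376 to 1.25) and 1.01 (0.626 to 1.62). Leaving out 22Rv1 library 3 put the fitted log2 fold change at -3.25 with NC-mimic and -1.85 with the mimic. GLI2 then passed the filter on low counts through LNCaP alone with NC-mimic, so these values are given without a test.

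GLI3 (chr7:41960949-42264100, minus strand), which acts mostly as a repressor, was not called between the lines. Its CPM was between 6.84 and 8.79 in the 6 LNCaP libraries, and in 22Rv1 it was 8.79, 8.40 and 7.42 with NC-mimic and 10.7, 12.9 and 5.44 with the mimic. Here the libraries numbered 3 were the lowest of 22Rv1, at 0.631 times the mean of the other 4. The log2 fold change between the lines was 0.03 with NC-mimic (95% interval -0.388 to 0.455, edgeR adjusted p = 0.904) and 0.18 with the mimic (-0.457 to 0.813, adjusted p = 0.672). Without library 3 the latter was 0.46 (SE 0.181, adjusted p = 0.0376), under the limit of 1, and with NC-mimic it was 0.10 (SE 0.205, adjusted p = 0.689).

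**Figure D3:**
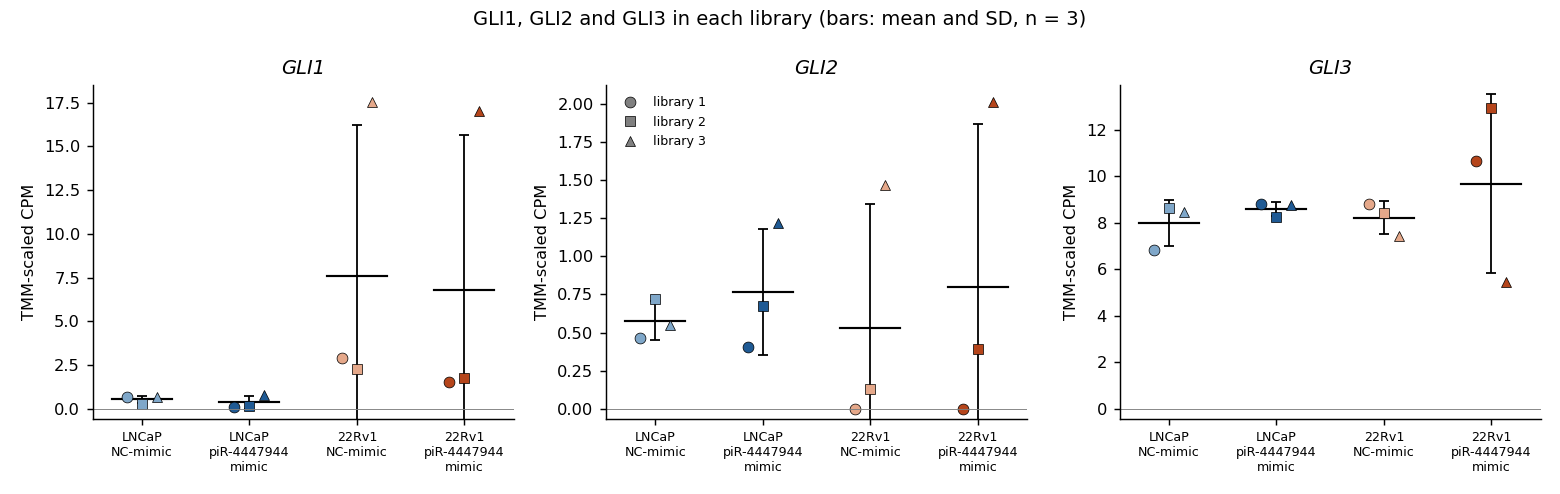
GLI1, GLI2 and GLI3 in each library, in TMM-scaled CPM. Points are libraries, with a triangle for those numbered 3, horizontal lines are means and bars the SD of 3 libraries. In 22Rv1 both triangles are the highest for GLI1 and GLI2 and the lowest for GLI3.

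Other genes moved with number 3 in 22Rv1. Of the 7 members tested in that line, GLI1 lay above and GLI3 below the other 4 libraries (28.6%, beside 39.1% of all genes), while EVC, EVC2, SMO, PTCH1 and SUFU overlapped with them. Of 9 stromal marker genes, the summed level was 108 and 132 TPM in the libraries numbered 3, against 33.5 to 46.0 TPM in the other 4. Most of that came from VIM, an intermediate filament gene that tumour cells can also express, at 87.0 and 93.9 TPM against 19.9 to 30.0 TPM, and COL1A1 followed at 11.8 and 21.7 TPM against 4.23 to 6.15 TPM. COL1A2 was at 1.55 and 0.74 TPM against at most 0.21 TPM. The other 6 genes did not stand apart in this way: LUM was at 2.60 and 4.52 TPM against 2.87 to 4.35 TPM, DCN at 0.67 and 0.51 TPM against 0.38 to 2.89 TPM, and PDGFRB at 0.04 and 0.13 TPM, while DES was at 0 in both libraries numbered 3. In LNCaP the summed level of this list was 39.3 to 58.9 TPM. The part of these genes in the level of GLI1 was not tested.

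Set in order by TPM, the members made different lists in the lines. In LNCaP with NC-mimic the order was SMO at 16.6 ± 1.82, SUFU at 16.4 ± 1.02, PTCH1 at 12.3 ± 4.33, EVC at 10.5 ± 0.782, GLI3 at 2.47 ± 0.0889, GLI1 at 0.327 ± 0.103 and GLI2 at 0.13 ± 0.0608 TPM (SD, n = 3), with EVC2 and HHIP listed at 0. SMO and SUFU overlapped, as did PTCH1 and EVC, and the ranges of the other neighbours were apart. In 22Rv1 with NC-mimic PTCH1 came first at 47.3 ± 10.1 TPM, followed by EVC at 7.09 ± 2.67, SUFU at 6.49 ± 0.564, GLI1 at 4.26 ± 4.74, GLI3 at 2.41 ± 1.24 and EVC2 at 0.763 ± 0.127 TPM. SMO, at 0.367 ± 0.0379 TPM, had dropped to the bottom of the list beside HHIP at 0.37 ± 0.36 and GLI2 at 0.157 ± 0.254 TPM. In that group PTCH1 stood clear of EVC, and GLI3 of EVC2, while EVC, SUFU, GLI1 and GLI3 overlapped in a chain, and so did EVC2, HHIP, SMO and GLI2. With the mimic PTCH1 led again in 22Rv1 at 45.4 ± 8.11 TPM, ahead of EVC at 10.7 ± 2.95 TPM, and SMO led in LNCaP at 18.2 ± 1.57 TPM.

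**Figure D4:**
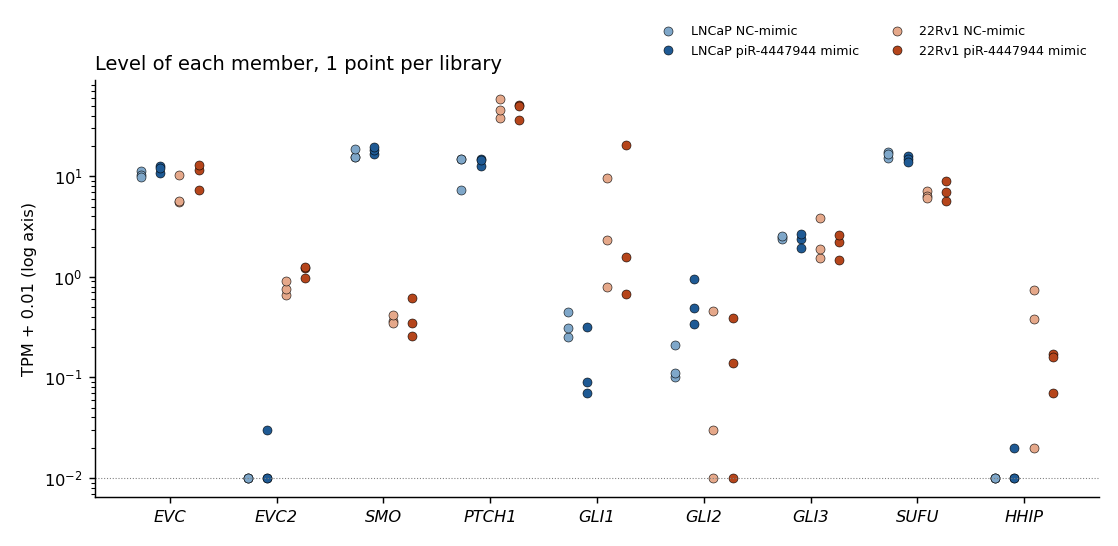
TPM of the 9 members in each library, plotted as TPM + 0.01 on a log axis, with the groups side by side and the dotted line at a TPM of 0. PTCH1 is the highest member in 22Rv1, SMO drops from among the highest in LNCaP to below 1 TPM in 22Rv1, and EVC2 and HHIP are at or near 0 in LNCaP.

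Counted over the members, 5 of the 7 tested between the lines with NC-mimic passed both limits for a line difference (edgeR adjusted p under 0.05, log2 fold change beyond 1 in either direction), beside 34.5% of all genes tested. PTCH1 and GLI1 were higher and SMO and SUFU lower in 22Rv1. Of these, PTCH1, SMO and SUFU also passed the filter on low counts within each line, and GLI1 passed it in LNCaP only over both oligos together. The fifth was EVC2. GLI1 and EVC2 were tested between the lines only because of their counts in 22Rv1. With the mimic the same 5 genes were called among 8 tested, beside 32.7% of all genes. The sets share no library, but same-numbered 22Rv1 libraries of the NC-mimic and the mimic deviated together. The mimic set is thus not an independent repeat of the line differences. GLI2 and HHIP were not tested with NC-mimic and HHIP was not tested with the mimic. The same 5 genes were called in both sets without 22Rv1 library 3, beside 38.0% and 37.6% of all genes, and with NC-mimic GLI2 in addition, with the limit given above.

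The study called a gene changed by the mimic when its shrunken DESeq2 log2 fold change exceeded 0.2 in either direction and its p-value, before adjustment, was under 0.05. The same limits were set here on the edgeR fit, whose changes are not shrunken, and are called the mimic limits. They were met by 1 of 7 members tested in LNCaP, beside 2.22% of 16244 genes, and by 1 of 7 in 22Rv1, beside 1.48% of 16898 genes. In both lines that member was EVC, which the choice fixed. With shrunken DESeq2 changes 3 genes and 0 members met the limits in LNCaP, where EVC was at 0.10, and 277 genes and 1 member, EVC at 0.33, in 22Rv1. In the edgeR fit EVC no longer met them in LNCaP without NC-mimic library 2 (0.16), mimic library 2 (0.20) or mimic library 3 (0.21), nor in 22Rv1 without NC-mimic library 2 (0.45). A replicate block let 420 genes meet the limits in 22Rv1 in place of 250, and the count of members was the same. At an adjusted p under 0.05 edgeR called 0 genes in LNCaP (0.0%) and 0 in 22Rv1 (0.0%). In LNCaP 433 genes had an unadjusted p under 0.05 and DESeq2 called 2 at the adjusted threshold, and in 22Rv1 the numbers were 250 and 1. Of 14757 genes tested in both lines, 4 met the limits with a higher level in both, EVC included.

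No other member met the mimic limits or an adjusted threshold with all libraries in the fit. In LNCaP the log2 fold changes were 0.12 for SMO (SE 0.101), 0.01 for PTCH1 (SE 0.0984), -0.49 for GLI1 (SE 0.66), 0.42 for GLI2 (SE 0.499), 0.11 for GLI3 (SE 0.156) and -0.15 for SUFU (SE 0.0831). All had an edgeR adjusted p of 0.999. Some rested on 1 library: SMO was at 0.24 without NC-mimic library 3 (adjusted p = 0.587) and GLI1 at -1.72 without mimic library 3 (adjusted p = 0.999), both then inside the mimic limits. GLI2 in LNCaP overlapped in CPM but not in TPM, at 0.09 to 0.2 TPM with NC-mimic and 0.33 to 0.94 TPM with the mimic. The mean length of the transcripts assigned to it was 5033 to 7136 bases with NC-mimic and 1382 to 2938 bases with the mimic. The share of all genes separated in TPM was not counted, so nothing is read from this. In 22Rv1 the log2 fold changes were -0.35 for SMO (SE 0.498), 0.16 for PTCH1 (SE 0.131), -0.17 for GLI1 (SE 1.12), 0.24 for GLI3 (SE 0.349) and 0.08 for SUFU (SE 0.19), again with an adjusted p of 0.999. Without both libraries numbered 3 they were -0.14, 0.20, -0.64, 0.46 and -0.11 in the same order, with adjusted p between 0.976 and 1.0. SMO in 22Rv1 had its mimic libraries below its NC-mimic libraries in CPM, on counts of 11 to 22. In TPM the groups overlapped, at 0.34 to 0.41 TPM with NC-mimic and 0.25 to 0.6 TPM with the mimic. The share of all genes separated downward was not counted, so nothing is read from this order. GLI1 in 22Rv1 was lower with the mimic in 3 of 3 same-numbered pairs in CPM, but number 3 was nearly level, at 17.5 and 17.0 CPM. In TPM numbers 2 and 3 were higher with the mimic, from 0.79 to 1.56 TPM and from 9.66 to 20.5 TPM. The share of all genes with such pairs was not counted, so nothing is read from them. With a replicate block the log2 fold change of GLI1 was -0.42 (edgeR adjusted p = 0.869). For PTCH1 in 22Rv1 the 95% interval was -0.0927 to 0.419.

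**Figure D5:**
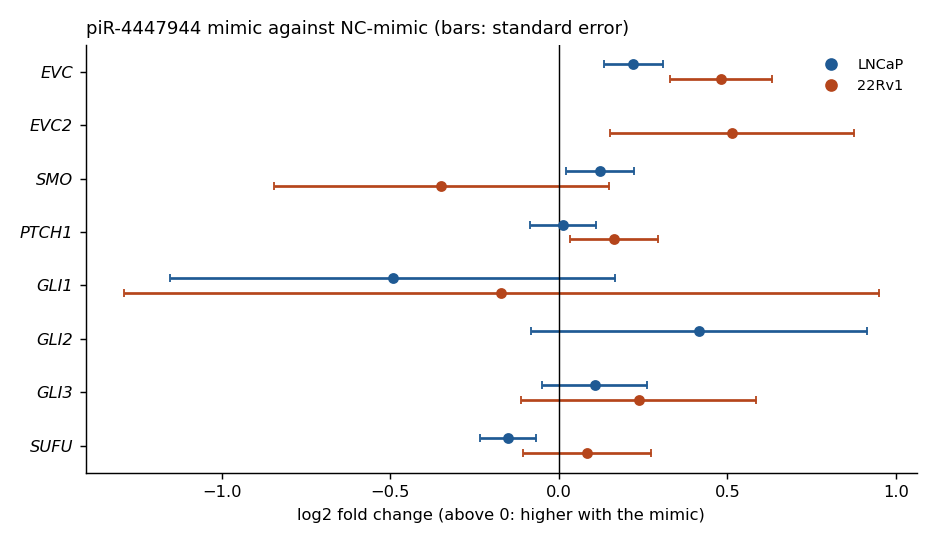
Log2 fold change of each member with the piR-4447944 mimic against NC-mimic in LNCaP (blue) and 22Rv1 (orange), with standard errors. EVC lies above 0 in both lines and was chosen for that. GLI1 has the widest error in both lines. EVC2 was tested in 22Rv1 only and GLI2 in LNCaP only, and HHIP in neither.

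Whether the mimic acted differently in the lines was asked over all 12 libraries. edgeR called 0 of 18720 genes (0.0%) at an adjusted p under 0.05, with 610 at an unadjusted p under 0.05 and 3 by DESeq2. No member was among them. The log2 fold change with the mimic in 22Rv1 minus that in LNCaP was -0.45 for SMO (95% interval -0.935 to 0.0341), 0.15 for PTCH1 (-0.162 to 0.463), 0.24 for SUFU (-0.151 to 0.629) and 0.35 for GLI1 (-2.70 to 3.40), each with an edgeR adjusted p of 1.0. EVC2, at or near 0 in LNCaP, gave -1.39 (-3.27 to 0.485). Without both libraries numbered 3 SMO stood at -0.26, PTCH1 at 0.18, SUFU at 0.03, GLI1 at -0.15 and EVC2 at -1.18. For EVC the difference was 0.26 (SE 0.164), and 0.14 without those libraries.

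Genes known as Hedgehog targets were described as a list of 24, of which PTCH1, GLI1 and HHIP are members. With the mimic, 0 of 12 tested in LNCaP and 0 of 16 in 22Rv1 met the mimic limits, beside 2.22% and 1.48% of all genes. Between the lines with NC-mimic, 11 of 14 tested were called, 8 higher and 3 lower in 22Rv1, and with the mimic 11 of 14, 9 higher and 2 lower, beside 34.5% and 32.7% of all genes. Leaving out the members, 9 of 12 were called in each set. The counts over the list were 14 of 15 and 13 of 15 without 22Rv1 library 3, beside 38.0% and 37.6%. A gene that is near 0 in LNCaP passes the filter only through 22Rv1, so these counts are a description. CCND1, a G1 cyclin, went from 369 CPM in LNCaP to 2720 CPM in 22Rv1 with NC-mimic (log2 fold change 2.88, SE 0.114, edgeR adjusted p = 8.65e-07). CDK6, a partner of the G1 cyclins, went from 2.87 to 48.6 CPM (4.08, SE 0.565, adjusted p = 0.000457), and SOX9, a transcription factor of prostate development, from 9.19 to 41.8 CPM (2.18, SE 0.259, adjusted p = 0.000202). OSR2, a transcription factor, fell the other way, from 26.3 to 3.54 CPM (-2.91, SE 0.243, adjusted p = 3.17e-05), and so did HSD11B2, which inactivates cortisol, from 56.9 to 14.1 CPM (-2.02, SE 0.188, adjusted p = 5.64e-05). All of these genes are under the control of other pathways too. NKX6-1 was at a mean of 4.52 CPM in 22Rv1 and 0.851 CPM in LNCaP with NC-mimic. RAB34 and FOXC1, with 8 counts and 1 count over the LNCaP NC-mimic libraries and 82 and 98 over those of 22Rv1, are given by their levels alone.

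The ligands were near the limit of detection. SHH had 2 counts in each LNCaP group and 25 in each 22Rv1 group, and IHH 8 and 2 in the LNCaP groups and 19 in each 22Rv1 group. DHH had 7 and 2 counts in the LNCaP groups and 1.12 and 17 in the 22Rv1 groups, NC-mimic first. None of these ligands exceeded a mean of 0.243 TPM in a group. Of the co-receptors that help ligand bind PTCH1, CDON was lower in 22Rv1 (36.9 against 10.0 CPM with NC-mimic, log2 fold change -1.90, SE 0.226, edgeR adjusted p = 0.000202), and GAS1 had 2 and 0 counts in the LNCaP groups and 24 and 23 in the 22Rv1 groups. BOC had means of 2.98 and 3.13 TPM in the LNCaP groups and 2.79 and 3.62 TPM in the 22Rv1 groups, where it ranged from 0.36 to 7.36 TPM with NC-mimic and from 0.19 to 9.74 TPM with the mimic. Its counts were less alike, at 286 and 258 in the LNCaP groups and 82.3 and 225 in the 22Rv1 groups, NC-mimic first.

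In a list of 35 other pathway genes, 9 of 30 tested were called between the lines with NC-mimic (5 higher, 4 lower in 22Rv1) and 11 of 30 with the mimic (6 higher, 5 lower), beside the 34.5% and 32.7% of all genes given above. Without 22Rv1 library 3 it was 12 of 31 in each set, 6 in each direction. The genes called higher in both sets were HHAT, which acylates the ligand, DISP1 and DISP2, which release it, SCUBE2, which carries it off, and LRP2, an endocytic receptor. DISP1 rose from 10.2 to 25.1 CPM with NC-mimic (log2 fold change 1.29, SE 0.242, edgeR adjusted p = 0.00218) and HHAT from 1.22 to 5.04 CPM (2.03, SE 0.408, adjusted p = 0.00307). SCUBE2 was at 0.0515 CPM in LNCaP and 24.0 CPM in 22Rv1, and LRP2 at 0.12 and 11.3 CPM, and both passed the filter on low counts through 22Rv1. The genes called lower in both sets were CDON, PRKACB, a catalytic subunit of protein kinase A, and GPR161, a ciliary receptor that raises cyclic AMP. PRKACB went from 985 CPM to 24.1 CPM (-5.36, SE 0.213, adjusted p = 8.81e-07) and GPR161 from 26.7 to 3.67 CPM (-2.93, SE 0.515, adjusted p = 0.00157).

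With the mimic, 1 of 29 of these genes (3.45%) met the mimic limits in LNCaP and 0 of 30 in 22Rv1, beside 2.22% and 1.48% of all genes. The 1 gene was TULP3, an adaptor that brings membrane proteins into the cilium, at 27.6 to 30.0 CPM with NC-mimic and 20.7 to 26.2 CPM with the mimic (log2 fold change -0.26, SE 0.107, edgeR adjusted p = 0.999). IQCE and EFCAB7, which tether the complex of EVC and EVC2 at the base of the cilium, were transcribed in both lines, IQCE at a mean of 17.1 TPM in LNCaP and 21.5 TPM in 22Rv1 with NC-mimic and EFCAB7 at 10.9 and 4.81 TPM.

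The cilium itself needs genes for its assembly and transport. Of 42 tested, 4 were called between the lines with NC-mimic and 4 with the mimic, 2 in each direction both times, beside 34.5% and 32.7% of all genes. The counts were 5 and 3 without 22Rv1 library 3. KIFAP3, a subunit of the motor that runs toward the tip, was higher in 22Rv1 (log2 fold change 1.29, SE 0.108, edgeR adjusted p = 3.17e-05). TTC21B, a subunit of the return train, was lower (-1.37, SE 0.134, adjusted p = 7.37e-05), and so was CC2D2A, of the gate at the base (-1.77, SE 0.19, adjusted p = 0.000122). With the mimic 0 of 42 met the mimic limits in either line, beside 2.22% and 1.48% of all genes, and 1 of 42 did in 22Rv1 without both libraries numbered 3, beside 4.57%.

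Over the 12 libraries, with each line centred on its own mean, the genes whose log2 CPM ran most like that of EVC among 14757 were GAS6 (r = 0.949), AC004951.2 (r = 0.948), CASK (r = 0.922), RNF227 (r = 0.917) and MEX3D (r = 0.912). Among members the correlation with EVC was 0.494 for PTCH1, -0.57 for SMO, 0.146 for SUFU, -0.123 for GLI3 and 0.0482 for GLI1. These values are descriptions: the libraries share depth and oligo, the leading genes were picked from all 14757, and EVC itself was chosen on part of this variation. EVC2 was not tested in LNCaP and has no such list.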

How the data were processed

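Total RNA was extracted from the cells, and the study names its method mRNA sequencing. Trimming, strand and read length were not given in the sources used here. The authors mapped the reads with STAR 2.7.1a against hg38, and RSEM 1.3.0 gave gene levels. They deposited, for each of 12 libraries, the expected count of each gene (estimated, not normalized, with reads that match several genes divided), the TPM and the mean transcript length, and a common table of the same TPM, which was not needed. The depth was 12161091 to 22179601 expected counts per library. The submitters' processing notes also list R 4.1.1 and DESeq2 1.34.0. The members and gene lists were chosen with earlier results of these data known.

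For testing, the expected counts were made whole by rounding. The quasi-likelihood test of edgeR 4.0.16 (R 4.3.3, TMM, filterByExpr) was run in a separate fit for each comparison, with Benjamini-Hochberg adjustment over all genes tested and, for the effect of the mimic between the lines, over all 12 libraries. Mimic comparisons used the limits of the study (p under 0.05, absolute log2 fold change over 0.2), which it set on shrunken DESeq2 changes, on unshrunken edgeR changes, and line comparisons an adjusted p under 0.05 with an absolute log2 fold change over 1. CPM were TMM-scaled over all libraries. Differences of library values were tested with exact two-sided permutation tests, and the fits were tested on simulated data. Named genes were the members, genes of the lists called in both line comparisons (at most 5 per list and direction with the largest smaller change) or meeting the mimic limits, genes overlapping or next to EVC and EVC2, and the 5 genes most correlated with EVC; the levels of ligands, co-receptors, cilium tethers and markers were added. SOX9 and NKX6-1 were named outside this rule after their values were seen. Alternatives were DESeq2 1.42.0 (Wald test, and shrunken changes), DESeq2 size factors, no low-count filter, limma 3.58.1 on log2(TPM + 1), 1 fit over all 12 libraries, a replicate block, EVC summed with CRMP1, CPM per kilobase in place of TPM, and leaving out libraries. Positions came from GENCODE on hg38 and promoters from RefSeq (GRCh38.p14). GLI1 and GLI3 have no promoter shown.

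Same-numbered libraries were compared by the correlation of their deviations from the group means across genes. It was 0.251, 0.197 and 0.392 for numbers 1, 2 and 3 in 22Rv1, so the numbers were taken to pair libraries there, from the values alone. In LNCaP it was 0.063, 0.00583 and 0.241, and the numbers were not taken to pair libraries. The split is not sharp, since LNCaP number 3 lay above 22Rv1 number 2 and close to number 1. The main fits did not use the numbers, and the replicate block did.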

Additional observations from a re-analysis of the deposited data

How the results depend on the processing

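In LNCaP the genes called with the mimic numbered 361, against 3 with DESeq2's shrunken changes, 168 with all 12 libraries in one fit, 578 with limma on log2(TPM + 1), 891 without a low-count filter and 284 to 1008 with 1 library left out (1008 without NC-mimic library 3). In 22Rv1 they numbered 250, against 1232 with all 12 libraries in one fit, 459 with limma, 532 without a low-count filter, 781 without both libraries numbered 3 and 183 to 376 with 1 library left out (376 without mimic library 3). With 1 library left out they ranged between the lines from 5625 to 6963 with NC-mimic and from 4984 to 6771 with the mimic, and for the difference in effect from 0 to 1. limma called 4908 and 4703 between the lines and the fit without a low-count filter 7022 and 6291, and DESeq2 called 3 for the difference in effect. The cause of these shifts was not tested. The members called with the mimic in LNCaP fell from 1 to 0 with shrunken changes, with all 12 libraries in one fit and with limma on log2(TPM + 1), and ranged from 0 to 2 with 1 library left out; EVC was not called without NC-mimic library 2, mimic library 2 or mimic library 3, SMO was called without NC-mimic library 3 (0.24) and GLI1 without mimic library 3 (-1.72). In 22Rv1 they fell from 1 to 0 with limma and without NC-mimic library 2 (EVC, 0.45), a range of 0 to 1. Between the lines limma, in which EVC2 and GLI1 did not pass the filter, called 3 members in place of 5 with NC-mimic and 2 with the mimic, and leaving out 1 library gave 5 to 6 and 3 to 5.

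The replicate block raised the genes called in 22Rv1 to 420 and changed no call of a member. It turned GLI2 between the lines with the mimic from 0.06 to -0.67, and leaving out number 3 turned it to -1.85.

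None of the member values that changed sign was called. With limma, GLI3 turned to -0.0711 in LNCaP, to -0.10 in 22Rv1, to -0.082 between the lines with NC-mimic and to -0.11 with the mimic, and in 22Rv1 PTCH1 turned to -0.0544 and GLI1 to 0.18. Without a low-count filter GLI3 between the lines with NC-mimic was -0.0044, and without both libraries numbered 3 SUFU in 22Rv1 was -0.11 and the difference in effect for GLI1 was -0.15. With 1 library left out, the sign changed within these ranges: in LNCaP PTCH1 -0.0818 to 0.0943 and GLI2 -0.0882 to 0.71; in 22Rv1 GLI1 -2.18 to 1.36, GLI3 -0.0298 to 0.53 and SUFU -0.0748 to 0.21; between the lines GLI3 -0.0778 to 0.0997 with NC-mimic, GLI3 -0.086 to 0.46 and GLI2 -1.85 to 0.63 with the mimic; and for the difference in effect EVC2 -1.85 to 0.52, GLI1 -1.68 to 1.88, GLI2 -1.66 to 3.24 and GLI3 -0.13 to 0.41. CPM per kilobase is nearly the same quantity as TPM within a library, so the unchanged order of the 9 members is no separate check. At 0 to 69 counts per library, EVC2, HHIP, GLI2 and LNCaP's GLI1 limit what could be seen.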
